A study of Bos taurus with 4 samples.

Results

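Genes for 7 RNA-binding and RNA-guided proteins of the germline were followed in sperm RNA of Murrah buffalo bulls, namely YBX1, YBX2, DAZL, BOLL, DDX4, PIWIL1 and TDRD1. They were chosen by name, as every probe that the array design assigns to 1 of these symbols, and they account for 14 of the 51282 probes and 7 of the 32429 gene names on the array. RNA of Percoll-selected spermatozoa from breeding bulls of high or low field conception rate had been combined into 2 high-fertile and 2 low-fertile pools, each holding equal amounts from 2 bulls, and each pool was hybridized with 1 dye to its own bovine array. The labels name no treatment or age, and fertility is the only property in which they set the groups apart. A pool averages its bulls, and the 2 pools of a group therefore give a spread between pools and not between animals. The buffalo RNA was read with probes designed on cattle sequence, and mismatches between the species were not measured here. The sample descriptions name buffalo while the organism field of the deposit names Bos taurus, the species of the array.

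Y-box proteins carry a cold-shock domain and coat messenger RNA in the cytoplasm. YBX1 is found in most cell types, whereas YBX2 (MSY2, Contrin) is a germ cell protein that packages and holds back translation of messenger RNA made in spermatocytes and round spermatids. DAZL and BOLL belong to the DAZ family, which binds the untranslated ends of germ cell messages and recruits the translation machinery. DDX4 (VASA) is the RNA helicase of germ granules, PIWIL1 binds piRNAs in meiotic and postmeiotic germ cells, and TDRD1 is a Tudor-domain scaffold that holds PIWI proteins in those granules.

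YBX1 had 3 probes and YBX2 had 2, and their sequences are shown because the results turn on where in the transcript each probe lies and on how far the probes of the paralogues resemble each other. Each name gives the gene and the base of the transcript at which the probe starts, as listed in the array files, and sequences run 5′ to 3′ in the sense of the transcript. Capitals mark the bases that the YBX1 probe at base 392 and the YBX2 probe at base 435 share in their best ungapped alignment, and no capitals are used in the others. The probes at bases 1259 and 1506 are shown by their first 30 bases.
YBX1, base 392: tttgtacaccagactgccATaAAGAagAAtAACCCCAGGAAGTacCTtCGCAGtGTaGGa
YBX1, base 992: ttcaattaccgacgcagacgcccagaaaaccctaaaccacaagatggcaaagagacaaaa
YBX1, base 1259: gaactatctgcattatctatgcagcatggg
YBX2, base 435: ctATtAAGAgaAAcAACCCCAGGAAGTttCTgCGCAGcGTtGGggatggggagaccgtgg
YBX2, base 1506: ttatgaactgtcatgtgccacctgagcctc

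The 5′ probes of YBX1 and YBX2 aligned over 41 bases, of which 32 were identical, with a longest identical run of 13 bases. The other pairings of a YBX1 with a YBX2 probe aligned over at most 17 bases. All probes were 60 bases long, and hybridization of one paralogue's RNA to the other's probe was not tested.

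On Btau_3.1, the cattle build named in the array files, YBX1 lies on the minus strand of chromosome 3. Its probe at base 392 covers chr3:110468440-110471217 and crosses 2718 intronic bases, so it reads across an exon junction. The probe at base 992 lies at chr3:110463961-110464020 and that at base 1259 at chr3:110462816-110462875, each in 1 uninterrupted stretch. The last 2 are 267 bases apart in the transcript and 1145 bases apart in the genome, 878 more, so an intron separates their starts. Coding and untranslated parts of the message were not annotated in the files used here.

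YBX1 signal was lower in low-fertile than in high-fertile bulls, and the size of the difference grew from the 5′ probe to the 3′ probe. The fold was 1.35 at base 392, where it did not pass the test, 2.28 at base 992 and 6.81 at base 1259. With normexp background correction the log2 differences in that order were smaller, at -0.31, -0.78 and -2.01, and grew in the same direction. Of the 14 probes, 4 were bright enough to be tested (the 3 of YBX1 and 1 of YBX2), and 2 of these 4 fell past an adjusted p of 0.05 in limma, both of them YBX1. Over all 21033 probes tested on these arrays 26.8% passed in either direction and 17.6% passed as lower in low-fertile bulls. The share as higher was 9.22%. Leaving out high-fertile pool 1 reduced the share in either direction to 13.7%, and leaving out pool 2 of that group reduced it to 12.55%, while 2 of the 4 probes passed in both cases. The balance of directions depends on the setting: 65.6% of all calls were lower, but 92.1% with spike-in centring, and 37.5% of the 4339 calls among the 12552 probes that, like those of YBX1, were well above background on all 4 arrays (34.6% of these passed). YBX1 had been singled out on these same arrays before, so its fall is described here and is not independent evidence of a direction.

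The 3′ probe of YBX1, at base 1259, had processed signals of 333 and 334 intensity units in high-fertile pools 1 and 2 and of 50.5 and 42.2 in the corresponding low-fertile pools. Either high-fertile reading was far above either low-fertile one. After subtraction of each array's 75th percentile, the pools in the same order stood at 3.18, 3.17, 0.45 and 0.37 on the log2 scale. The difference was -2.77 (SE 0.141, 95% CI -3.12 to -2.42, adjusted p = 0.00221, limma), which ranked 140 from the lowest of 21033 probes. Leaving out each pool in turn gave between -2.80 and -2.73, with adjusted p between 0.00427 and 0.0171 in limma.

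The middle probe, at base 992, read 187 and 176 units in high-fertile RNA and 76.3 and 73.7 units in low-fertile RNA. The groups were again apart, with a smaller gap. Mean log2 signal was 2.30 ± 0.08 (SD, n = 2) in high-fertile and 1.11 ± 0.09 (SD, n = 2) in low-fertile bulls. The difference was -1.19 (SE 0.148, 95% CI -1.56 to -0.82, adjusted p = 0.00512, limma).

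The 5′ probe, at base 392, read 96.6 and 97.4 units in high-fertile RNA and 76.1 and 60.7 units in low-fertile RNA. The low-fertile pools were the lower ones here too, with a narrower gap than at the other probes. Mean log2 signal was 1.39 ± 0.003 (SD, n = 2) against 0.97 ± 0.10 (SD, n = 2), and the difference of -0.43 (SE 0.145, 95% CI -0.79 to -0.06, adjusted p = 0.0823, limma) did not pass. It passed with normexp background correction (-0.31, adjusted p = 0.0146), with centring on the spike-in probes (-0.80, adjusted p = 0.0219), and with 2 further alternatives given in the closing section.

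**Figure D1:**
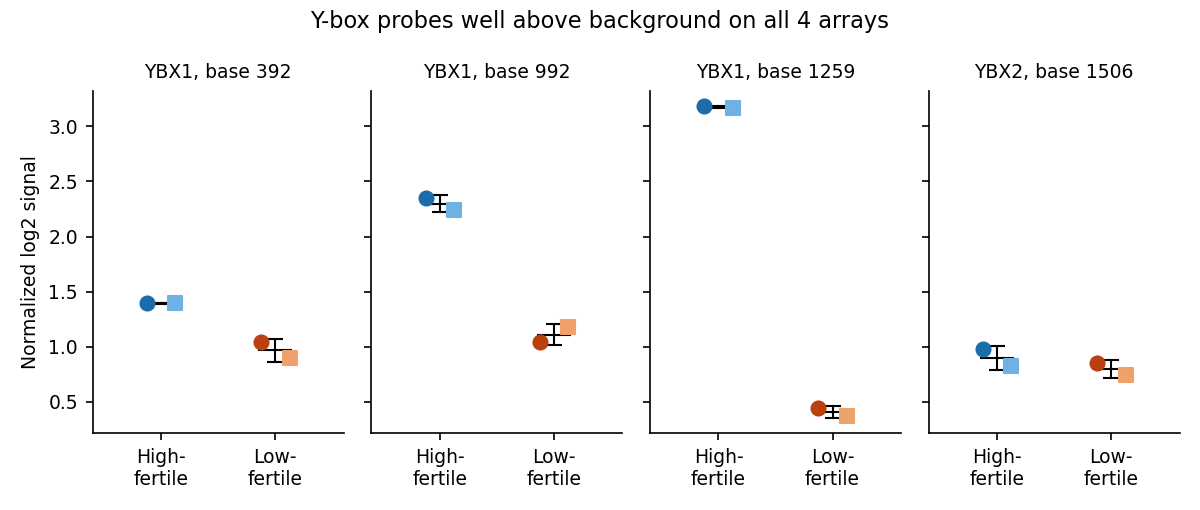
Normalized log2 signal (log2 processed signal minus the array's 75th percentile, vertical axis) of the 4 Y-box probes with signal well above background on every array, by fertility group. Each point is 1 pool and bars show the mean and SD of 2 pools; the gap between groups widens from YBX1 base 392 to base 1259, and the pools overlap at YBX2 base 1506.

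**Figure D2:**
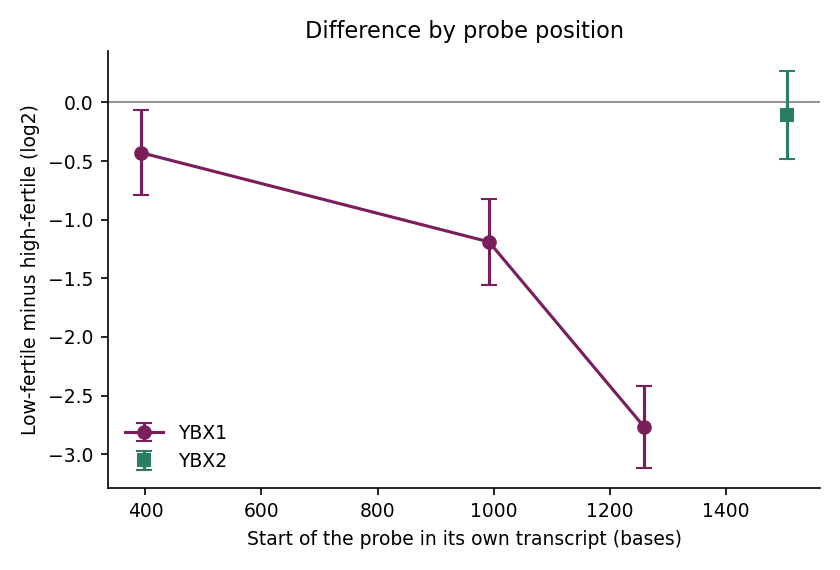
Low-fertile minus high-fertile difference (log2, vertical axis) against the start of the probe in its own transcript (bases, horizontal axis), with 95% confidence intervals from limma. The 3 YBX1 probes lie at -0.43, -1.19 and -2.77, and the YBX2 probe at -0.10 has an interval that spans 0.

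The probes of YBX1 were also compared within each array, where a scaling of the whole array cancels. Signal at base 1259 minus that at base 392 was 1.78 log2 units in each high-fertile pool and -0.59 and -0.52 in low-fertile pools 1 and 2. This value was lower in both low-fertile pools. The change of the gap between groups, low-fertile minus high-fertile, was -2.34 for this pair. For base 992 against base 392 the gaps were 0.96 and 0.85 in high-fertile RNA and 0.00 and 0.28 in low-fertile RNA, a change of -0.76. For base 1259 against base 992 they were 0.83 and 0.93 in high-fertile RNA and -0.60 and -0.80 in low-fertile RNA, a change of -1.58. In each of the 3 pairs the groups did not overlap, and the exact two-sided permutation test gave p = 0.333, which is the smallest value that 2 pools against 2 can give. Groups did not overlap at 69.1% of single tested probes either, and the share over gaps of other probe pairs was not computed. The values of the third pair follow from those of the other 2. Probes differ in how strongly they bind, so only the change of a gap between groups is read here and not the gap itself.

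Gradients of this kind were set beside all transcripts with at least 2 tested probes, a description added after the YBX1 values were seen and given no test. The probes of 3129 genes differed from each other in their group difference by a median of 0.56 log2 units, YBX1 by 2.34, and 115 genes (3.68%) by more. A range tends to widen with the number of probes, and YBX1 had 3 where 2 were enough for a gene to be counted. Among 2901 transcripts the difference at the 3′-most probe minus that at the 5′-most probe had a median of -0.13 and an 80% central range of -1.24 to 0.75. It was below 0 in 57.6% of the transcripts and below the value of YBX1 in 2.07%. With probes at least 500 bases apart (1837 transcripts) the median was -0.17 and 58.9% were below 0. Of 514 transcripts with 3 probes, 127 (24.7%) fell step by step toward the 3′ end as YBX1 did and 58 (11.3%) rose step by step. With probes well above background on all 4 arrays only, 13 of 1412 genes (0.921%) had a wider range than YBX1. Labelling of the RNA began at the poly(A) tail, and the part of RNA length, of the priming site and of isoforms in the YBX1 gradient was not tested.

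**Figure D3:**
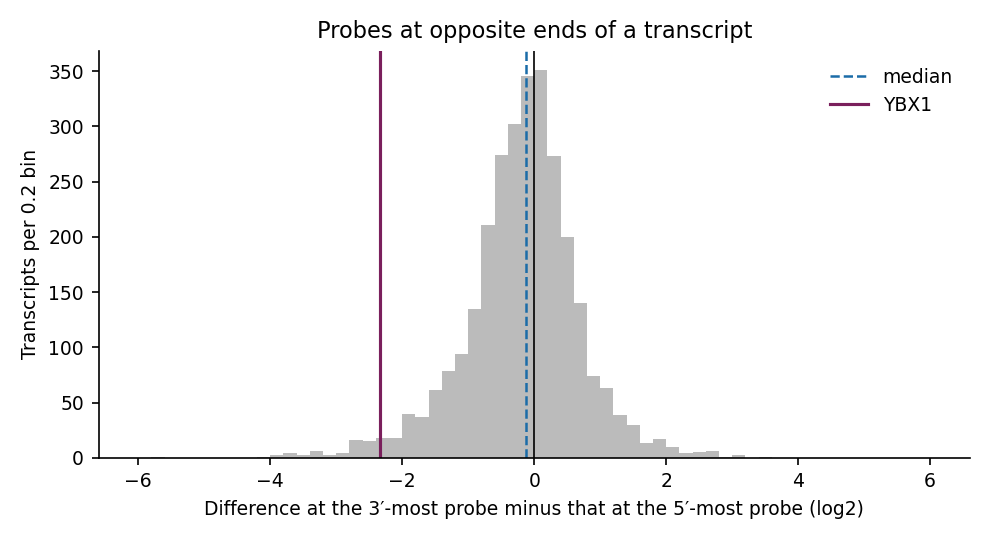
Histogram over 2901 transcripts of the group difference (low-fertile minus high-fertile, log2) at the 3′-most tested probe minus that at the 5′-most tested probe, in bins of 0.2. The dashed line marks the median of -0.13 and the solid coloured line marks YBX1 at -2.34, in the left tail.

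YBX2, the germ cell Y-box protein, lies on the minus strand of chromosome 19. Its 3′ probe, at base 1506 (chr19:27367954-27368013), was well above background on every array, with 72.3 and 65.6 units in high-fertile and 66.9 and 54.5 units in low-fertile RNA. The pools of the groups overlapped. Mean log2 signal was 0.90 ± 0.11 (SD, n = 2) in high-fertile and 0.80 ± 0.08 (SD, n = 2) in low-fertile bulls, a difference of -0.10 (SE 0.1502, 95% CI -0.48 to 0.27, adjusted p = 0.632, limma). Normexp correction turned its sign, to 0.03. The interval leaves room for a change of up to 0.48 log2 units down or 0.27 up, so equal levels were not shown.

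The 5′ probe of YBX2, at base 435 (chr19:27370554-27370613), was dim and was not tested. It read 14.4 and 11.8 units in high-fertile and 18.3 and 25.5 units in low-fertile RNA, and only low-fertile pool 1 had it marked well above background. The low-fertile pools were both higher. Its group difference of 0.82 shrank to 0.19 with normexp correction and to 0.45 with spike-in centring, and was 0.49 without low-fertile pool 2.

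**Figure D4:**
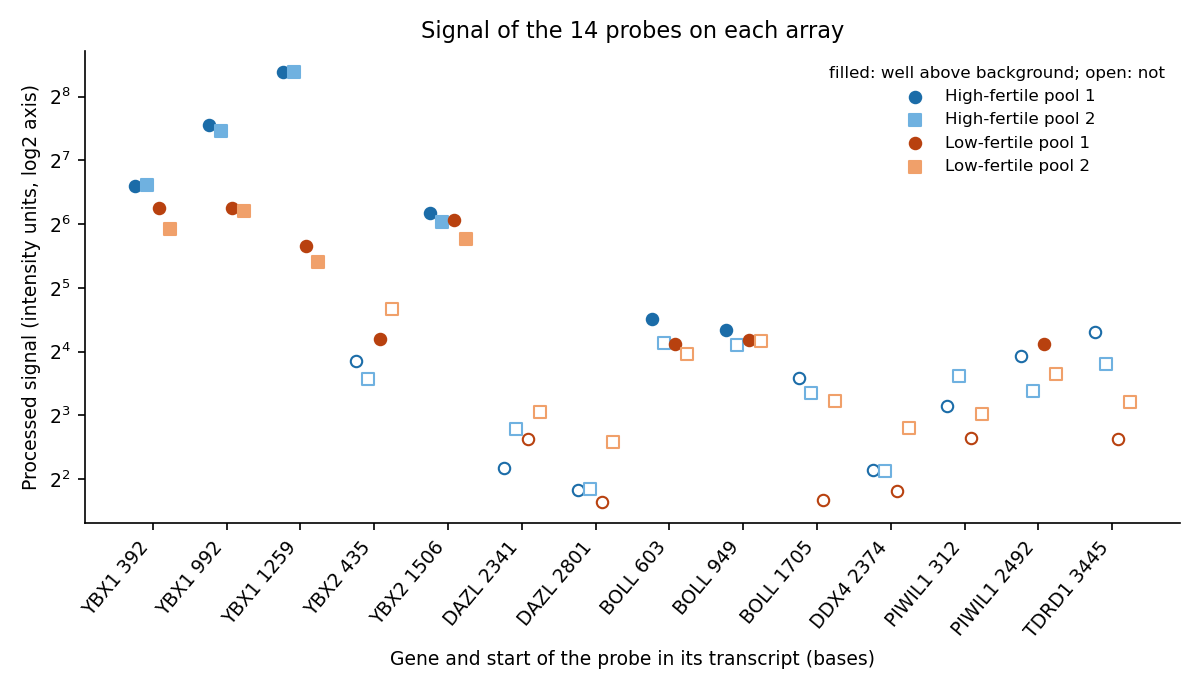
Processed signal (intensity units, log2 axis) of all 14 probes on the 4 arrays, ordered by gene and by start of the probe in its transcript. Filled points were well above background and open points were not; the 3 YBX1 probes and YBX2 base 1506 stand above 42 units on every array, and the other 10 probes lie between 3.13 and 25.5.

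The 5 germline genes gave low signals in these sperm pools. None of their 9 probes was well above background on both arrays of a group, so none was tested, and 6 of the 9 were not marked well above background on any array. That mark is strict, and several of these probes were brighter than most negative-control spots, as given below. Of the 10 untested probes, counting YBX2 base 435, 4 had the lower mean and 6 the higher mean in low-fertile bulls, and in 12 of their 40 readings the scanner software had put a substitute value in place of a signal too close to background. Pools of the groups did not overlap for 2 of the 10 probes, YBX2 base 435 and TDRD1, against 49.0% of all probes on the array and 69.1% of the probes tested. Fewer spermatozoa holding a transcript and less of it per cell cannot be told apart in pooled RNA.

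Of the DAZ family, DAZL had probes at base 2341 (chr1:157143602-157143661) and at base 2801 (chr1:157143142-157143201), both on the minus strand, and neither was well above background on any array. The first read 4.51, 6.86, 6.20 and 8.28 units in high-fertile pools 1 and 2 and low-fertile pools 1 and 2, with groups that overlapped, and 88.0%, 98.1%, 99.4% and 96.1% of the 308 negative-control spots of the array lay below it. The second read 3.55, 3.59, 3.13 and 5.996 units, all of them substitute values, and 21.1%, 17.2%, 5.84% and 11.04% of those spots lay below it. The second lay within the lower part of the negative controls in every pool, and the first above most of them. Of the first probe's readings, however, 6.86 in high-fertile pool 2 and 8.28 in low-fertile pool 2 were substitute values too.

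BOLL (BOULE), the oldest member of the DAZ family and expressed in meiotic and haploid male germ cells, had 3 probes on the minus strand of chromosome 2. Those at base 603 (chr2:90477005-90477064) and base 949 (chr2:90446383-90446442) were each well above background in high-fertile pool 1 and low-fertile pool 1, and in neither pool 2. The first read 22.7, 17.6, 17.4 and 15.6 units and the second 20.2, 17.3, 18.1 and 17.9 units, in the order high-fertile 1, high-fertile 2, low-fertile 1, low-fertile 2. After normalization base 603 stood at -0.69, -1.08, -1.09 and -1.06 and base 949 at -0.86, -1.10, -1.03 and -0.87 on the log2 scale, where the groups overlapped at both, with mean differences of -0.19 and 0.03. With 1 pool left out these ranged from -0.38 to 0.00 and from -0.09 to 0.15, and with spike-in centring they were -0.56 and -0.34. On each array both probes were brighter than at least 99.4% of the negative-control spots, so the readings of these probes were low and still above the level of those controls. The third probe, at base 1705 (chr2:90432525-90432584), was well above background on no array, with 11.96, 10.2, 3.19 and 9.40 units in that order. The 3.19 was a substitute value with 21.8% of the negative-control spots below it. On the other arrays at least 98.4% lay below. After normalization this probe stood at -1.62, -1.86, -3.54 and -1.80, where the groups overlapped. Its difference of -0.93 became -0.15 with normexp correction and ranged from -1.80 to -0.06 with 1 pool left out.

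Among the germ granule genes, DDX4 had 1 probe, at base 2374 on the minus strand of chromosome 20 (chr20:24965810-24965869). It read 4.42, 4.36, 3.50 and 6.999 units in the order above, all substitute values, and between 64.0% and 84.1% of the negative-control spots lay below it. The DDX4 readings were highest on the array of low-fertile pool 2, whose negative controls also had the highest median of the 4 arrays, 6.36 units against 3.35 to 3.95.

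PIWIL1 on the plus strand of chromosome 17 had a probe at base 312 (chr17:49283244-49283803, crossing 500 intronic bases) and another at base 2492 (chr17:49308684-49308743). The first read 8.90, 12.2, 6.26 and 8.10 units and was not marked well above background on any array, although between 95.1% and 99.7% of the negative-control spots lay below it. The second read 15.2, 10.4, 17.5 and 12.596 units and was well above background in low-fertile pool 1 only. After normalization the first stood at -2.04, -1.60, -2.56 and -2.01 and the second at -1.27, -1.84, -1.08 and -1.37 on the log2 scale, in the order used for BOLL. On that scale the groups overlapped at both probes, and the differences had opposite signs, -0.46 (-0.74 to -0.19 with 1 pool left out) and 0.33 (0.04 to 0.61). With spike-in centring both were below 0 (-0.84 and -0.04), and with normexp correction base 312 gave -0.09.

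TDRD1 on the plus strand of chromosome 26 had 1 probe, at base 3445 (chr26:35185215-35185355, crossing 81 intronic bases). It read 19.8 and 13.9 units in high-fertile and 6.21 and 9.29 units in low-fertile RNA, not well above background on any of the 4 arrays, with between 98.4% and 99.7% of the negative-control spots below it. The 9.29 in low-fertile pool 2 was a substitute value. Both low-fertile pools were lower, a difference of -1.04 that became -0.21 with normexp correction. It was -0.66 without low-fertile pool 1, where the substitute value alone stood for the low-fertile group, and -1.43 without low-fertile pool 2. In the fit without a filter on dim probes the adjusted p of TDRD1 was 0.271 in limma.

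**Figure D5:**
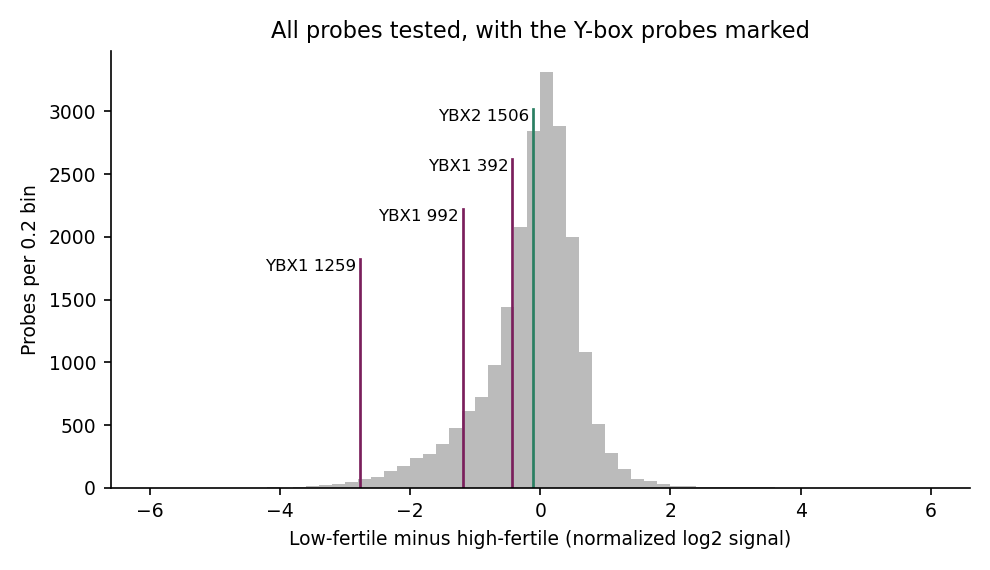
Histogram of the low-fertile minus high-fertile difference (normalized log2 signal, bins of 0.2) over the 21033 probes tested, with vertical lines at the 4 Y-box probes. YBX1 base 1259 lies in the lower tail, YBX1 base 992 at its shoulder, and YBX1 base 392 and YBX2 base 1506 within the main body.

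Other genes of these pathways were read by the brightest tested probe of each gene, in 3 lists of 82 genes together, of which 72 were on the array by name and 35 could be tested. Of these 35 genes 11 fell and 1 rose in low-fertile bulls, 34.3% in all, against 26.1% of all 16685 genes (16.6% lower, 9.53% higher). The median difference was -0.16 over the 35 genes and 0.01 over all genes. The count of 12 dropped to 3 without high-fertile pool 2 and to 5 among probes well above background on all 4 arrays. Of the 11 genes that fell, 5 were well above background on no low-fertile array and entered the test through their high-fertile pools alone, so the count is no support for a fall of the lists.

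Among relatives with a cold-shock domain, 1 of 4 tested genes fell and none rose, with a median of -0.32, where 16.6% of all genes fell. The gene that fell was CARHSP1, a cold-shock protein that binds messenger RNA. High-fertile pools had normalized log2 signals of 1.77 and 2.23 and low-fertile pools 1.16 and 1.34. The difference was -0.75 (SE 0.203, adjusted p = 0.0463, limma), and the groups did not overlap. It did not pass in limma with quantile normalization (adjusted p = 0.0582), with the percentile taken over probes bright on all arrays (0.063), or without high-fertile pool 2 (0.18), low-fertile pool 1 (0.124) or low-fertile pool 2 (0.0864).

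Among partners of DAZ proteins and other regulators of germ cell translation, 6 of 19 tested genes fell and none rose, with a median of -0.30. Over all genes 16.6% fell and 9.53% rose, and 3 of the 6 entered the test through their high-fertile pools alone. FMR1, the fragile X RNA-binding protein, had log2 signals of -0.50 and -0.82 in high-fertile against -3.53 and -2.47 in low-fertile RNA (adjusted p = 0.00892, limma). CPEB3, which binds the cytoplasmic polyadenylation element, had 0.65 and 0.39 against -1.23 and -1.91 (adjusted p = 0.00517, limma). In each of these 2 genes the low-fertile pools were below both high-fertile pools. Neither gene was well above background on a low-fertile array, so their low-fertile levels are known only as approximate bounds. Both entered the test through their high-fertile pools alone, so their adjusted p is no support for a fall. Set against the lowest signal well above background, FMR1 was 1.02-fold lower and CPEB3 2.31-fold lower. A probe can be brighter than that signal and still lack the mark. TDRD1 read 19.8 units without it in high-fertile pool 1, where the lowest marked signal was 17.0, so these folds are not strict limits. Normexp correction gave -0.49 for FMR1 and -0.69 for CPEB3, smaller than the -2.34 and -2.09 of the main fit.

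Among other genes of the piRNA pathway and germ granules, 4 of 12 tested genes fell and 1 rose, with a median of -0.14. Over all genes 16.6% fell and 9.53% rose, and 2 of the 4 entered the test through their high-fertile pools alone. TDRD6, a Tudor protein of the chromatoid body, had log2 signals of -0.06 and 0.34 in high-fertile against -0.90 and -1.28 in low-fertile RNA (difference -1.23, SE 0.217, adjusted p = 0.013, limma). It was well above background on 3 of the 4 arrays and not in low-fertile pool 2, so the size of its difference is uncertain. EIF2C4, an Argonaute protein now named AGO4, had -0.27 and -0.09 against -1.20 and -1.62 (adjusted p = 0.00979, limma). No low-fertile array had it well above background, and by the same approximate bound it was 1.41-fold lower. Normexp correction reduced its difference from -1.23 to -0.34. STK31, a Tudor-domain kinase of male germ cells, was 1.21-fold lower by the same kind of bound, with an adjusted p of 0.04996 in limma. EIF2C4 and STK31 entered the test through their high-fertile pools alone, so their adjusted p is no support for a fall. XRN1, a cytoplasmic exonuclease named here after its values were seen, differed by -0.58 (adjusted p = 0.0454, limma), and its other tested probe gave -0.08. Like TDRD6, XRN1 was well above background on only 3 of the 4 arrays. GPAT2, a mitochondrial acyltransferase needed for piRNA production, rose from log2 signals of 0.13 and -0.07 in high-fertile RNA to 0.80 and 0.87 in low-fertile RNA (difference 0.81, SE 0.152, adjusted p = 0.0163, limma). With spike-in centring GPAT2 gave 0.43 and no longer passed (adjusted p = 0.0723). Normexp correction reduced the difference of TDRD6 to -0.33 and that of GPAT2 to 0.35, both still past the threshold in limma, and raised the adjusted p of STK31 to 0.262 and that of XRN1 to 0.0726, and neither passed in limma. Without high-fertile pool 2 none of these 5 genes passed, with adjusted p of 0.0618 for TDRD6, 0.0538 for EIF2C4, 0.178 for STK31, 0.158 for XRN1 and 0.09 for GPAT2 in limma. TDRD6 passed with any other pool left out. GPAT2 also did not pass without high-fertile pool 1 (0.0509) or low-fertile pool 2 (0.0541), STK31 without high-fertile pool 1 (0.142) or low-fertile pool 1 (0.127), and XRN1 without any of the pools (0.0546 to 0.158).

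The 5 annotated genes whose 4 values, centred on their own mean, lay nearest to those of YBX1 base 1259 were CHCHD2, MXI1, NUP205, RPL39 and OR5AR1, by Euclidean distance over the 4 arrays among 5805 genes. The distances were 0.243, 0.300, 0.338, 0.339 and 0.492 log2 units, and the group differences of these genes were -3.00, -2.51, -2.53, -2.49 and -2.29. Nearness over 4 arrays of 2 groups is a description of similar values and carries no statement on shared control.

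Markers of sperm and of other cells in semen were read on the same arrays. All 23 mature sperm markers were on the array, 6 of them were well above background on all 4 arrays (ACR, CATSPER1, OAZ3, ODF1, PRM1 and TNP1) and 8 on none (AKAP3, AKAP4, HSPA1L, LDHC, PGK2, SMCP, SPA17 and SPEM1). Their summed signal was 1564 to 1706 units in high-fertile and 1364 to 1665 units in low-fertile pools, and 1 of 9 tested rose (PRM1, 0.67, adjusted p = 0.0231, limma). Leukocyte markers summed to 7988 to 8225 units in high-fertile and 12409 to 12548 units in low-fertile pools, with 6 of 12 genes well above background on all arrays and CD3E, CD48 and S100A9 on none. PTPRC gave between 86.6% and 91.8% of each sum and was the 1 of 9 tested that rose (0.78, adjusted p = 0.016, limma). The other 11 leukocyte genes summed to 1007 and 1099 units in high-fertile and 1045 and 1021 units in low-fertile pools, which overlap. The part of other cells in the YBX1 values was not tested. Epithelial markers summed to 987 to 994 units in high-fertile and 1069 to 1091 units in low-fertile pools (546 and 576 against 704 and 690 units without KRT19, the brightest), with CDH1, EPCAM and KRT7 not well above background on any array, and 1 of 7 tested rose (CLDN7, 0.80, adjusted p = 0.0133, limma). Earlier germ cell markers, of which 8 of 11 were well above background on no array, summed to 252 to 255 units and 293 to 294 units. Testis somatic markers (969 to 1141 units against 996 to 1009) and red cell markers (294 to 430 units against 344 to 372) overlapped between groups in their sums. Without their brightest genes they did not: testis somatic markers without AMH summed to 711 and 752 against 675 and 696 units, and red cell markers without HBA to 156 and 172 against 189 and 211 units. STAR (0.79, adjusted p = 0.0212, limma) and HBB (1.24, adjusted p = 0.0118, limma) rose, 1 of 9 and 1 of 3 tested. No tested marker of any list fell, where 16.6% of all genes fell and 9.53% rose.

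The arrays differed in background, and the fertility groups lay in different parts of the slide. Between 23228 and 25642 probes were well above background in 3 of the pools and 13033 in low-fertile pool 2. High-fertile arrays lay in row 1, columns 3 and 4, and low-fertile arrays in row 2, columns 1 and 2, so fertility group and position on the slide cannot be told apart for any value above.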

How the data were processed

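The authors extracted intensities from each 1-colour scan with Agilent Feature Extraction 11.5.1.1, which subtracts background, and the deposited processed signal and its flags (well above background, outlier, substitute value) were used here. Their deposited log2 value table, made in GeneSpring GX by a 75th percentile shift (between 97.7% and 98.98% of its values lay within 0.05 of the same shift computed here), correlated with the scanner values at r = 0.997 to 0.999 (array medians -1.14, -1.14, -1.13 and -1.47) and served as an alternative. Other deposited columns (probe names, gene names, coordinates on Btau_3.1) are labels. Groups come from the labels. Spots flagged as outliers were left out, spots of a probe were averaged, and each array's 75th percentile of log2 processed signal (32.7 to 37.1 units) was subtracted. The 21033 of 51282 probes that at least 1 group had well above background on each of its arrays were fitted in limma 3.58.1 (R 4.3.3, lmFit and eBayes, Benjamini-Hochberg over all of them). A gene stood by its brightest probe in the pathway lists, of which up to 3 genes per direction with the largest change past the threshold were named, together with every probe of the 7 genes and the 5 nearest genes; 1 gene that this rule would name is not reported here. The members and lists were chosen with earlier results of these data known. Sequences are those of the array design, and the genome sequence was not used here. On simulated data of the same size, 200 of 21024 probes were changed in each of 5 simulations. The fit recovered 79.9% of differences of 2 log2 units and 4.49% of differences of 1 log2 unit. The changed share was far smaller than the 26.8% of probes that passed here, and recovery after Benjamini-Hochberg depends on that share. These rates therefore do not carry over to the real arrays. The pool numbers in the labels do not pair pools across groups (correlation of deviations 0.0055 over 21024 probes). With 2 arrays a group, the number of arrays limits the precision, p-values measure the spread between pools, and all arrays shared 1 slide and 1 scan. The 16 alternatives of the fit covered background correction, scaling, filters, the deposited table, the pool number as a block, the prior, the methods' t-test and each pool left out.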

Additional observations from a re-analysis of the deposited data

How the results depend on the processing

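YBX1 bases 1259 and 992 stayed lower in low-fertile bulls under all 16 alternatives and passed in all but 2 of them. Without a filter on dim probes no probe passed in limma, against 5632 probes in the main fit (9278 against 8741 at an unadjusted p under 0.05), so 0 of the Y-box and germline probes and 0 genes of the pathway lists passed (3 and 14 unadjusted); YBX1 base 1259 had an adjusted p of 0.115 and base 992 one of 0.134. With the methods' t-test the counts after Benjamini-Hochberg were 0, 0 and 0 (6084, 3 and 11 unadjusted), with adjusted p of 0.07 for YBX1 base 1259 and 0.0898 for base 992. Leaving out each pool gave 2640 to 4989 probes, 2 member probes throughout and 3 to 11 genes of the lists, for which probes well above background on all arrays gave 5. YBX1 base 392 passed also with that filter (adjusted p = 0.0422) and with an intensity trend (adjusted p = 0.0466).

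Normexp correction reduced the change of the gap between YBX1 probes to -0.47 (base 992 against 392), -1.70 (1259 against 392) and -1.23 (1259 against 992), and the range over the 3 probes from 2.34 to 1.70; leaving out each pool gave -0.90 to -0.62, -2.37 to -2.30, -1.68 to -1.47 and 2.30 to 2.37. The difference of YBX2 base 1506 reversed to 0.0335 with normexp correction, and that of DAZL base 2341 went from 0.45 to -0.16. Spike-in centring placed the median of all probes at -0.38, and relative to that median YBX1 stood at -0.42, -1.18 and -2.76 and YBX2 base 1506 at -0.10; PIWIL1 base 2492 went from 0.33 to -0.04 without that allowance. The share of calls that were lower was 65.6% in the main fit, 92.1% with spike-in centring and 37.5% with probes well above background on all arrays. The cause of these shifts was not tested.

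With the pool number as a replicate block 5331 probes passed, of which 2 were YBX1 probes (base 392 had an adjusted p of 0.13), and 11 genes of the lists passed. STK31 (adjusted p = 0.0541) and XRN1 (0.0649) no longer passed with the block; STK31 (0.0805) and XRN1 (0.0586) also fell short with an intensity trend and with quantile normalization (0.094 and 0.0586), and STK31 with outlier spots kept (0.0509). The dim germline probes lie near background, which limits any statement on them.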
